A study of Rattus norvegicus with 8 samples.

Results

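The genes described here handle iron in the rat hippocampus: the ferritin subunit genes Fth1 and Ftl1, transferrin (Tf), the transferrin receptor (Tfrc), ceruloplasmin (Cp) and the iron regulatory proteins Aco1 and Ireb2. They were taken as every non-control array probe whose RefSeq accession belongs to 1 of these 7 symbols. That gave 12 probes of 6 genes, out of 41012 non-control probes, 15184 of which could be named for 12206 genes. No probe matched Tfrc by accession, so it has no value here. Ftl1 had 4 probes, Cp 3, Fth1 2, and Tf, Aco1 and Ireb2 had 1 each, and all 12 passed the filter on dim probes. Probes of 1 of these genes are annotated to the same RefSeq transcript and are not replicates of each other.

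The samples were hippocampi of 8 male Wistar rats, 1 rat per 1-colour (Cy3) Agilent array. The control group (4 rats) had CE-2 feed alone, and the CCH group (4 rats) had it with 0.1% coral calcium hydride powder from 6 weeks of age until they were killed at 8 weeks. The free-text sample descriptions speak of a lesion model and injections, against the titles and treatment labels, which set the groups used here. All 4 control arrays lay on 1 slide and all 4 CCH arrays on another, so no value below can separate diet from slide or scan: they cannot be told apart.

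Cells take up iron when transferrin, loaded with ferric iron, binds its receptor and is carried into endosomes. Iron that is not used at once is stored inside ferritin, a hollow shell built of heavy (Fth1) and light (Ftl1) chains; the heavy chain oxidises the iron and the light chain helps lay down the core. Ceruloplasmin is a copper-bearing ferroxidase that helps iron leave cells. Aco1 (IRP1) and Ireb2 (IRP2) are RNA-binding proteins that, when iron is short, block translation of ferritin messages and protect the message of the transferrin receptor, so much of this control does not show in the amount of a messenger RNA. In brain, oligodendrocytes are rich in iron, ferritin and transferrin, and the choroid plexus, the epithelium that makes cerebrospinal fluid, also expresses transferrin.

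Each array had 33091 to 34643 spots well above background, and 0 spots were saturated. The 75th percentile of the processed signal, by which each array was scaled, ran from 563 to 700 on the control arrays and from 642 to 882 on the CCH arrays, with the highest value on CCH replicate 1. Precision here is set by how few arrays there are. All 10 tested markers of hippocampal neurons, among them the dentate gene Prox1 and the CA1 gene Wfs1, were well above background on all 8 arrays. Values below are log2 signals relative to the 75th percentile of the array, and a value on one probe cannot be set against a value on another.

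The stretches of DNA just before the starts of Tf, Aco1 and Ireb2 are shown because Tf varied widely from rat to rat while both regulators varied little, with SDs over the 8 arrays of 0.36, 0.17 and 0.17. Each is the 100 bases upstream of the RefSeq start (GRCr8), written 5′ to 3′ on the strand of the gene, with capitals for any of the 4 motifs searched: TATAAA on that strand, and on either strand GGGCGG (the GC box), the sequence CCAAT, and the hypoxia-inducible factor core ACGTG. Tf lies at chr8:112695377-112695476 on the minus strand, Aco1 at chr5:60055795-60055894 on the plus strand and Ireb2 at chr8:64160988-64161087 on the plus strand.
Tf: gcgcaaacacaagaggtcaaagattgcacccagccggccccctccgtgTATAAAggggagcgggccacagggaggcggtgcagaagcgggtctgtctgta
Aco1: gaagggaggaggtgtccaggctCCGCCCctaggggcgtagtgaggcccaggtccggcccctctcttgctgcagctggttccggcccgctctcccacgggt
Ireb2: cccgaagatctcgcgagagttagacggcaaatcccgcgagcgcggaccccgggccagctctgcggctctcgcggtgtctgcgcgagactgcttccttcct
The Tf stretch holds the TATA box motif TATAAA, which 3.86% of 33469 promoter stretches of that length hold. That of Cp, not printed because it lies inside the annotated span of the gene, holds it too. The Aco1 stretch holds the GC box motif, on the opposite strand to the gene, as do 21.6% of promoters on either strand, and that of Ireb2 holds none of the 4 motifs searched. The G and C content was 62% for Tf, 29% for Cp, 71% for Aco1 and 67% for Ireb2, against a median of 54% over all promoters. The hypoxia-inducible factor core was in none of these 4 stretches and in 7.76% of all; the stretch before Tfrc, which has no value here, holds it. The CCAAT motif, found in 17.1% of all, was also in none of the 4. These absences depend on the length searched. In the 250 bases upstream the GC box motif occurred 3 times for Aco1 and 2 times for Ireb2 (30.5% of promoters hold it). CCAAT occurred 2 times for Tf and 1 time for Cp there (34.0% of promoters hold it).

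Of the 12 probes, 0 were called between CCH and control by limma after Benjamini-Hochberg adjustment across the 31618 probes tested, of which 0.174% (55 probes) were called, 0.0759% as higher and 0.0980% as lower. Without adjustment 3 of the 12 probes, 1 each of Fth1, Tf and Ireb2, reached a p under 0.05, against 15.4% of all tested probes. Of the 3, 2 were higher (8.79% of all) and 1 was lower (6.59% of all). Ireb2, counted as higher, did not keep its direction under another background correction, given below. The groups did not overlap on 1 of the 12, against 11.3% of all tested probes. CCH was higher on 8 probes and lower on 4, with a median log2 difference of 0.052, while 55.1% of all tested probes were higher, 44.9% were lower and their median was 0.027.

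**Figure D1:**
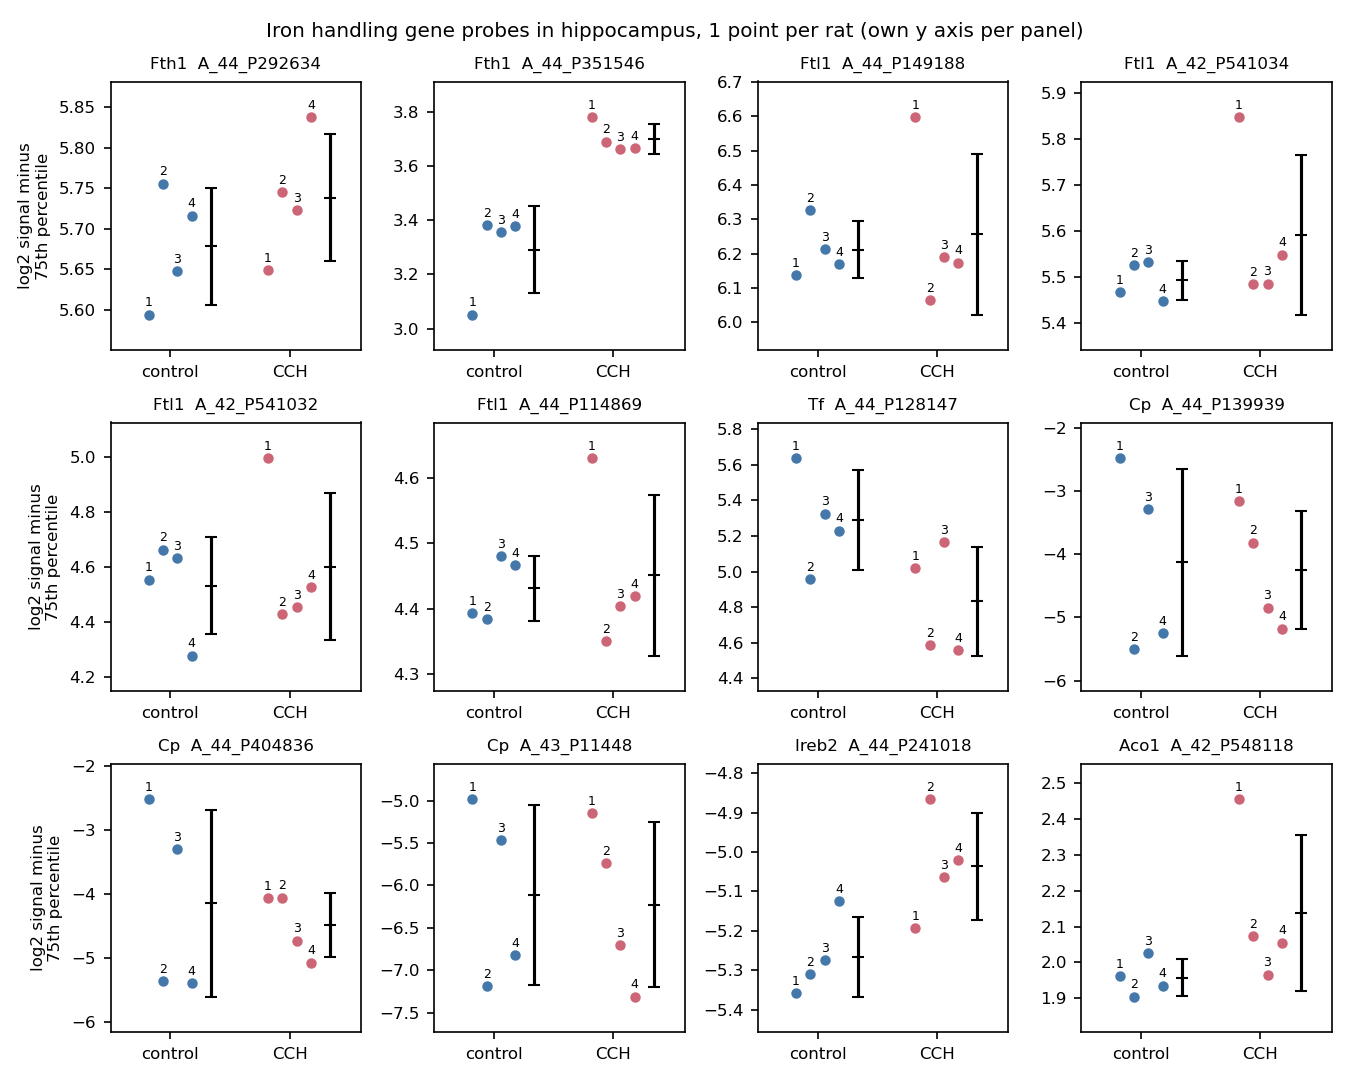
Each panel plots 1 probe: log2 signal minus the array's 75th percentile (y axis, own scale per panel) for the 4 control and 4 CCH rats, numbered by replicate, with the mean and SD as bars. Only the Fth1 probe A_44_P351546 separates the groups; Cp spreads most, and CCH replicate 1 is the highest point for all 4 Ftl1 probes and for Aco1.

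Ferritin heavy chain was measured by 2 probes that gave different answers. The brighter probe, A_44_P292634, read 5.59, 5.76, 5.65 and 5.72 in control replicates 1 to 4 and 5.65, 5.75, 5.72 and 5.84 in CCH replicates 1 to 4. The groups overlapped, and the spread over all 8 arrays was narrow. The difference was 0.060 ± 0.083 (SE, n = 4 per group, limma adjusted p = 0.782), with a 95% confidence interval of -0.13 to 0.25. The second probe, A_44_P351546, read 3.05, 3.38, 3.36 and 3.38 in control replicates 1 to 4 and 3.78, 3.69, 3.66 and 3.67 in CCH replicates 1 to 4. Every CCH array lay above every control array there, with control replicate 1 low among the controls. The difference was 0.41 ± 0.10 (SE, n = 4 per group), or 1.33-fold, and did not pass the threshold (limma adjusted p = 0.115); over its alternatives the adjusted p ran from 0.0484, with array weights, to 0.434. With 1 array left out the difference ran from 0.33, without control replicate 1, to 0.44. Oligodendrocyte markers were higher in CCH for 14 of 15 genes (median 0.35; 8 with an unadjusted p under 0.05, 0 called by limma). The control scores of that list spanned -0.25 to -0.011, the CCH scores 0.015 to 0.29, and with the score as a covariate the difference of this Fth1 probe was 0.36 (limma adjusted p = 0.407). Because the score separates the groups, that fit cannot tell diet from score. Microglia markers went the other way, lower in CCH for 11 of 13 genes (median -0.24; 3 with an unadjusted p under 0.05, 0 called by limma), with control scores of 0.013 to 0.19 and CCH scores of -0.17 to -0.026. Over all tested probes 55.1% were higher and 44.9% lower. By limma 8.79% were higher and 6.59% lower with an unadjusted p under 0.05. Both scores separated the groups, as this probe did, and their r with it over the 8 arrays was 0.79 for oligodendrocytes and -0.90 for microglia, as a description. Where probe and score both separate the groups, such an r largely restates the group difference. It cannot tie the probe to either cell type, and the part of these cells in the Fth1 values was not tested further. The score of a list is the mean deviation of its genes from their own means over the 8 arrays, in log2.

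Ferritin light chain was close to level. The brightest of its 4 probes, A_44_P149188, read 6.14, 6.33, 6.21 and 6.17 in control replicates 1 to 4 and 6.60, 6.06, 6.19 and 6.17 in CCH replicates 1 to 4. CCH replicate 1 stood above all other arrays and the other 3 CCH arrays lay at or below the control mean of 6.21. The same array was the highest on all 4 Ftl1 probes. The differences were 0.045 ± 0.13, 0.098 ± 0.10, 0.070 ± 0.15 and 0.020 ± 0.090 (SE, n = 4 per group; limma adjusted p between 0.707 and 0.943) on A_44_P149188, A_42_P541034, A_42_P541032 and A_44_P114869. Without CCH replicate 1 they were -0.069, 0.013, -0.061 and -0.039. The 95% confidence interval on the brightest probe was -0.24 to 0.33. Rats carry at least 1 further gene that the reference lists under the synonym Ftl1 (LOC100360087), so signal from near-identical ferritin copies is uncertain on these probes.

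The iron regulatory proteins showed small differences. Aco1, the cytosolic aconitase that turns into IRP1 when it loses its iron-sulphur cluster, read 1.96, 1.90, 2.03 and 1.94 in control replicates 1 to 4 and 2.45, 2.07, 1.97 and 2.06 in CCH replicates 1 to 4. CCH replicate 1 was again the highest, and CCH replicate 3 lay within the control range. The difference was 0.18 ± 0.12 (SE, n = 4 per group, limma adjusted p = 0.518), and 0.075 without CCH replicate 1. With 1 array left out it ran up to 0.24. Across the 8 arrays the r of Aco1 with Ftl1, as a description, was 0.74 on the brightest Ftl1 probe and 0.94, 0.76 and 0.80 on A_42_P541034, A_42_P541032 and A_44_P114869, with CCH replicate 1 as the top value of each. On the brightest probe the positive r rests on that array. Among the others, control replicate 2 had the highest Ftl1 (6.33) and the lowest Aco1 (1.90). CCH replicate 2 had the lowest Ftl1 (6.06) and the highest Aco1 (2.07) among them. No r was computed without CCH replicate 1. CCH replicate 1 had the lowest of the 8 array weights estimated by limma (0.185, the others between 0.865 and 1.67). The part of array quality in these values was not tested.

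Ireb2, which encodes IRP2, an iron sensor that is degraded when iron is ample, was dim but well above background on all 8 arrays. It read -5.36, -5.31, -5.27 and -5.12 in control replicates 1 to 4 and -5.19, -4.87, -5.06 and -5.02 in CCH replicates 1 to 4. The groups overlapped by a single pair of arrays, control replicate 4 lying above CCH replicate 1. The difference was 0.23 ± 0.10 (SE, n = 4 per group, limma adjusted p = 0.322), or 1.17-fold. With normexp background correction, which treats dim spots differently, it was -0.13, so no direction is given for this gene.

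**Figure D2:**
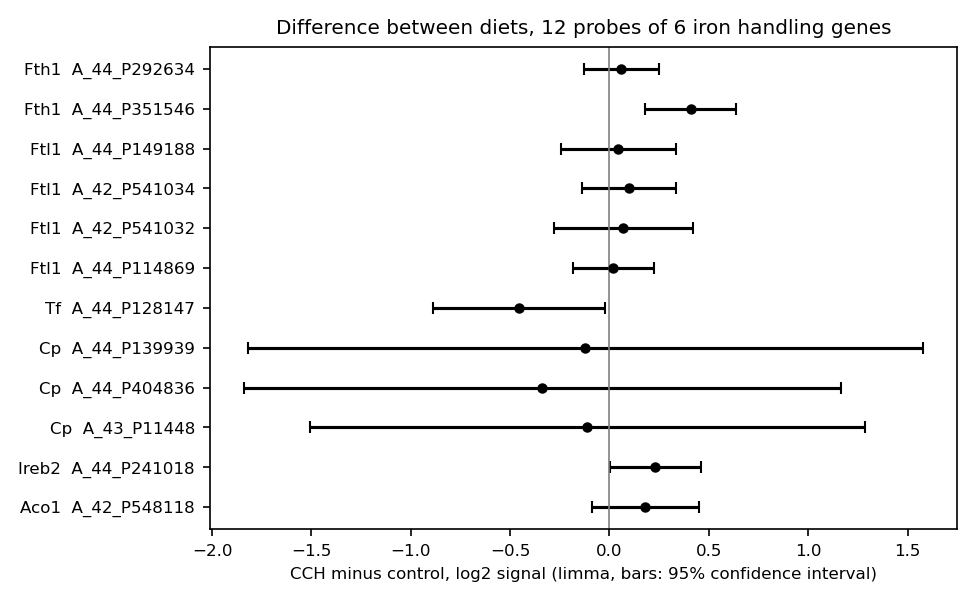
The log2 difference between CCH and control (x axis) is drawn for each of the 12 probes, with its 95% confidence interval from limma; the line marks 0. The interval is narrowest for the brighter Fth1 probe, at -0.13 to 0.25, and widest for Cp, at -1.82 to 1.58 on A_44_P139939.

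Transferrin was lower in CCH on average. Its probe, A_44_P128147, read 5.64, 4.96, 5.33 and 5.23 in control replicates 1 to 4 and 5.02, 4.59, 5.17 and 4.56 in CCH replicates 1 to 4. The groups overlapped, because CCH replicates 1 and 3 lay above control replicate 2. The difference was -0.45 ± 0.19 (SE, n = 4 per group), with control 1.37-fold above CCH, and did not pass the threshold (limma adjusted p = 0.300; 0.131 to 0.779 over the alternatives).

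Tf followed the markers of choroid plexus from rat to rat. All 12 tested markers of choroid plexus and ependyma, among them transthyretin (Ttr) and Kcnj13, were lower in CCH (median -2.07), against 44.9% of all tested probes. Of these markers 0 were called by limma over all probes, and 0 reached an unadjusted p under 0.05. None of these defining markers was absent from the controls: all 12 were well above background on all 4 control arrays, while Kl and Slc4a5 were so on 2 and Tmem72 and Prlr on 3 of the 4 CCH arrays. The scores of that list were 1.96, -0.66, 1.68 and 1.12 in control replicates 1 to 4 and 1.20, -3.32, 1.48 and -3.45 in CCH replicates 1 to 4. CCH replicates 2 and 4 stood apart from the other 6 arrays, and they were the arrays with the lowest Tf. Tf ranked the 4 control arrays, and the 4 CCH arrays, in exactly the order of the score, as did 0.453% of 31543 tested probes with a value on every array. Because the arrays fall into separate sets no correlation over all 8 is given; over the 6 other arrays Pearson's r was 0.74 (exact permutation, two-sided, p = 0.121; adjusted over 48 relations of members with marker scores, 0.680). A single relation over 6 arrays could not pass that adjustment, whatever its r. Without CCH replicates 2 and 4, left out after the data were seen, the Tf difference was -0.20 (limma adjusted p = 0.779), and with the score as a covariate it was -0.19 (limma adjusted p = 0.561). A lower amount of choroid plexus in a sample and less RNA per cell cannot be told apart in bulk tissue.

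Oligodendrocytes are the other known source of brain transferrin, and their markers were higher in CCH for 14 of 15 genes, against 55.1% of all tested probes. The score of oligodendrocyte markers was higher on every CCH array than on every control array, whereas Tf was lower on average. Over the 8 arrays r between Tf and that score was -0.62 and Spearman's rho was -0.62 (two-sided exact permutation p = 0.0972 and 0.115; 0.470 and 0.394 after adjustment over the 48 relations). Without the pair of arrays farthest from the median score r was -0.86, with an exact permutation p of 0.0306 and 0.367 after adjustment. No single relation over so few arrays could pass that adjustment. The score separates the slides. Within them, over 4 arrays each and with no test, r was -0.50 for the controls and 0.14 for CCH. With the choroid plexus score the r of Tf was 0.91 and 0.99 within the same slides. CCH replicates 2 and 4 stand apart on that score, so the 0.99 largely restates their low Tf. Which cells the Tf difference came from was not tested.

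On the scaled processed signal, ceruloplasmin varied more among rats than any other member. Its brightest probe, A_44_P139939, read -2.47, -5.50, -3.28 and -5.25 in control replicates 1 to 4 and -3.15, -3.81, -4.84 and -5.18 in CCH replicates 1 to 4. Control replicates 1 and 3 were the high arrays among controls and CCH replicates 1 and 2 among the CCH rats, and the groups overlapped throughout. The SD over all 8 arrays was 1.15, above that of 98.3% of tested probes, and the other probes had SDs of 1.03 and 0.94. Cp lies near background, and this spread depends on the background correction: with normexp the SEs of the group difference were 0.26, 0.23 and 0.074 in place of 0.74, 0.66 and 0.61. The differences were -0.12 ± 0.74, -0.34 ± 0.66 and -0.11 ± 0.61 (SE, n = 4 per group; limma adjusted p between 0.852 and 0.960) on A_44_P139939, A_44_P404836 and A_43_P11448, and their sign changed with the array left out, as at 0.43 on the first without control replicate 1. The probe A_43_P11448 was well above background on only 2 of 4 arrays in each group. Values on the 3 probes ran together, with r between 0.90 and 0.98 for the 3 pairs, as a description over 8 arrays; A_44_P139939 and A_43_P11448 ordered the arrays of each group in the same way, and A_44_P404836 did not.

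On that signal Cp ran with markers of meninges and fibroblasts. The scores of those 10 genes, which include decorin (Dcn) and the collagen genes Col1a1 and Col3a1, were 1.63, -1.43, 1.16 and -1.14 in control replicates 1 to 4 and 0.18, 0.39, -0.0035 and -0.77 in CCH replicates 1 to 4. Cp ordered the control arrays as this score did, an order the choroid plexus score shares, and the CCH arrays with replicates 1 and 2 exchanged. Over the 8 arrays Pearson's r was 0.93 and Spearman's rho was 0.93 (two-sided exact permutation p = 6.45e-04 and 0.00223; 0.0155 and 0.0536 after adjustment over the 48 relations). Without control replicates 1 and 2, the arrays farthest from the median score, r was 0.85 (exact permutation, two-sided, p = 0.0278, and 0.367 after adjustment). With 6 arrays even the smallest p the test can give would not, taken alone, pass an adjustment over 48 relations. The adjusted values over 6 arrays therefore decide nothing. Within the control slide r was 0.99 and within the CCH slide 0.77, over 4 arrays each. Cp also ran with the score of endothelium and pericytes, at r = 0.83 and rho = 0.79 (two-sided exact permutation p = 0.0152 and 0.0279; 0.145 and 0.223 after adjustment), and at r = 0.73 without control replicates 1 and 4 (exact permutation p = 0.135; 0.680 after adjustment). These relations of Cp were not rerun with normexp, so they carry the limit given above for its spread. All 10 markers of meninges and fibroblasts were well above background on all 8 arrays. In CCH 3 were higher and 7 lower (median -0.20), against 55.1% and 44.9% of all tested probes. Of these markers 0 were called by limma over all probes or reached an unadjusted p under 0.05.

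**Figure D3:**
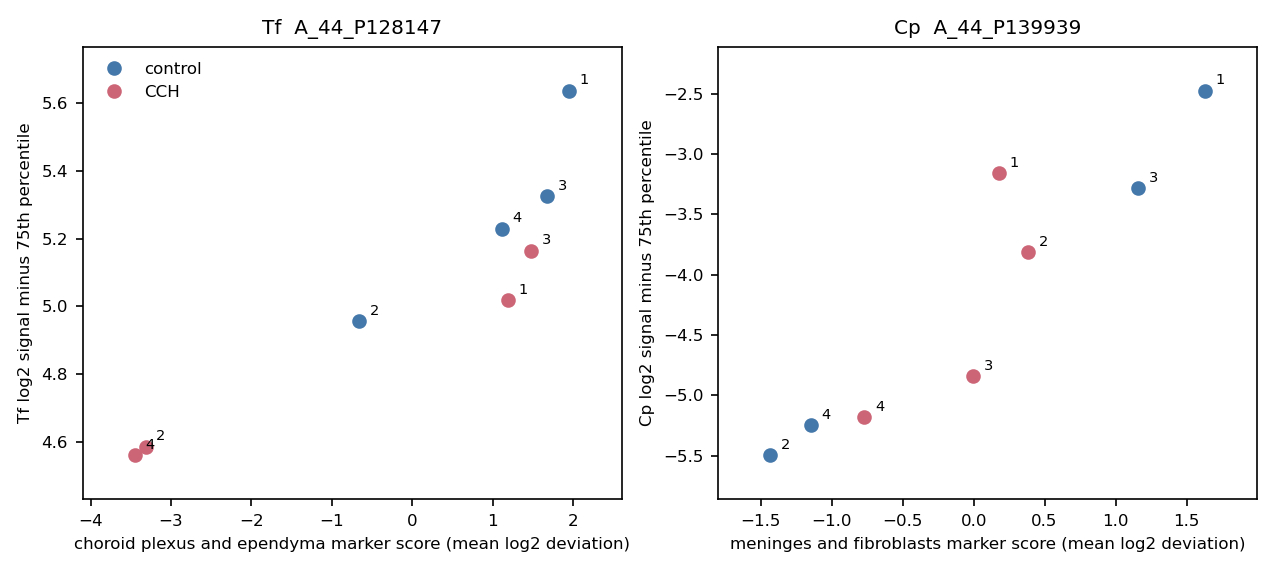
Tf signal is plotted against the choroid plexus and ependyma marker score (left), and Cp signal against the meninges and fibroblast marker score (right), both as log2 values, 1 point per rat numbered by replicate. The 2 CCH rats with scores of -3.32 and -3.45 have the lowest Tf, and control replicate 1 has the highest value on every axis.

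Only the brightest probe of each member entered the 48 relations, and among those of Fth1, Ftl1, Ireb2 and Aco1 none passed after adjustment. The Fth1 probe A_44_P351546 was not among them. Where a pair of arrays was left out, no single relation could pass, whatever its r. The brighter Fth1 probe ran against the choroid score, and without CCH replicates 2 and 4 its r was -0.75 (two-sided exact permutation p = 0.0597; 0.478 after adjustment). Ireb2 ran with the oligodendrocyte score at r = 0.86 and rho = 0.83 (two-sided exact permutation p = 0.00665 and 0.0154; 0.106 and 0.185 after adjustment), and at r = 0.97 without control replicate 3 and CCH replicate 3 (exact permutation p = 0.00556; 0.267 after adjustment). The score separated the slides, and with them the diets, and Ireb2 nearly did. Within the control slide r was 0.81 and within the CCH slide 0.56, over 4 arrays each. Ireb2 was dim, and its group difference turned from 0.23 to -0.13 with normexp background correction. Its relation with the score was not rerun with normexp, so it carries the same limit.

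The genes whose pattern over the 8 arrays was most like that of each member were picked by Pearson's r among 9707 other named genes, as a description of arrays that share 2 slides. For Tf they were Plce1, Cab39l and Krt8, the last a keratin of simple epithelia (r = 0.99, 0.99 and 0.98). For Cp they were the C1 inhibitor gene Serping1, Smad6 and Castor1 (r = 0.98 each). For Ftl1 they were the glycolytic enolase gene Eno1, Rtca and Gmppb (r = 0.98, 0.98 and 0.97), and for Aco1 the gamma-secretase subunit gene Ncstn, Igf1r and Adprs (r = 0.99, 0.98 and 0.98). The brighter Fth1 probe was closest to Hist3h2ba, Rabep1 and Syt5 (r = 0.99, 0.98 and 0.98), and Ireb2 to Morf4l1, Ptp4a1 and Arl8b (r = 0.97, 0.97 and 0.95).

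The rest of the iron pathway was read from 75 further genes in 7 lists by role, of which 59 had a named probe and 56 were tested, 1 probe per gene (the brightest). None was called by limma over all probes; an unadjusted p under 0.05 was reached by 2 that were higher and 2 that were lower, where the share over all tested probes was 15.4%. Of the 56 genes 28 were higher and 28 lower, with a median log2 difference of 0.0069, next to 0.03 over all tested probes. The groups did not overlap for 3 of the 56 genes, against 11.3% of all tested probes.

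Among genes of iron uptake 3 were higher and 8 lower of 11. The zinc and iron importer gene Slc39a14 read -0.86, -0.87, -1.10 and -0.90 in control replicates 1 to 4 and -1.57, -1.34, -1.30 and -1.58 in CCH replicates 1 to 4. The groups did not overlap on this probe, and the difference of -0.52 ± 0.11 (SE, n = 4 per group) stayed short of the threshold (limma adjusted p = 0.0761; 0.0409 to 0.380 over the alternatives). Its other tested probes were at 0.26, 0.12 and 0.0054, so the probes of this gene disagree in sign. The probe at 0.26 also had an unadjusted p under 0.05 (limma, 0.0280), in the direction opposite to the probe counted. Steap1, of a family of metalloreductases that reduce iron in endosomes, and the hemochromatosis gene Hfe, which binds the transferrin receptor, had the largest differences of the list, and were singled out after their values were seen. Steap1 read 0.53, -2.41, 0.08 and -0.52 in control replicates 1 to 4 and -0.49, -3.33, -0.39 and -3.80 in CCH replicates 1 to 4, with a difference of -1.42 ± 0.94 (SE, limma adjusted p = 0.526). Hfe read -2.65, -4.79, -3.57 and -3.87 in control replicates 1 to 4 and -3.94, -5.42, -3.44 and -5.96 in CCH replicates 1 to 4, with a difference of -0.97 ± 0.63 (SE, limma adjusted p = 0.519). Both ranked the arrays within each group in the order of the choroid plexus score, the order in which Tf ranked them. Without CCH replicates 2 and 4 their differences were 0.14 and 0.033, and with the score as a covariate 0.071 and -0.0059. With 1 array left out Steap1 ran from -2.03 to -0.83 (CCH replicate 4), and Hfe from -1.38 to -0.54 (CCH replicate 4). Hfe was at -0.61 without control replicate 1.

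Among genes of ferritin loading and turnover both tested members were higher. Pcbp2, an RNA-binding protein that also carries iron to ferritin, did not overlap between the groups and differed by 0.24 ± 0.087 (SE, limma adjusted p = 0.245), and Ncoa4, which takes ferritin to lysosomes, by 0.34 ± 0.25 (SE, limma adjusted p = 0.575). Ncoa4 was at 1.17 in CCH replicate 1 and at 0.36, 0.24 and 0.14 in CCH replicates 2 to 4, and its difference was 0.10 without CCH replicate 1 and 0.22 without control replicate 3. With 1 array left out the Ncoa4 difference ran up to 0.47. Of 5 tested genes of iron export and its control 2 were higher and 3 lower, with the membrane ferroxidase gene Heph, a relative of Cp, at -0.35 ± 0.19 (SE, limma adjusted p = 0.450) and the hepcidin gene Hamp at 0.13 ± 0.11 (SE, limma adjusted p = 0.644; -0.17 with normexp). Leaving out control replicate 1 put Heph at -0.20, and leaving out control replicate 4 put it at -0.53, while Hamp was at 0.054 when CCH replicate 1 was left out. The highest Hamp difference with 1 array left out was 0.19. Of 16 genes of heme synthesis, transport and breakdown 9 were higher and 7 lower. Hp, which encodes the hemoglobin-binding haptoglobin, was at 0.47 ± 0.17 (SE, limma adjusted p = 0.238), and the heme synthesis gene Uros, which did not overlap between the groups, at -0.38 ± 0.12 (SE, limma adjusted p = 0.180).

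Of 12 genes of mitochondrial iron and iron-sulphur clusters 7 were higher and 5 lower. Those with the smallest p were the co-chaperone gene Hscb, at -0.14 ± 0.096 (SE), and Nfs1, the cysteine desulfurase, at 0.23 ± 0.15 (SE; 0.075 without CCH replicate 1). Iron sensing and cytosolic cluster assembly had 3 higher and 3 lower. The hypoxia-inducible factor gene Hif1a was at 0.18 ± 0.098 (SE; 0.26 on its other probe, limma adjusted p = 0.240) and Epas1 at -0.091 ± 0.086 (SE). Of 4 iron-binding or ferroptosis genes 2 were higher and 2 lower, with the cystine transporter gene Slc7a11 at -0.88 ± 0.55 (SE; -0.36 without control replicate 1) and Acsl4 at 0.17 ± 0.14 (SE; -0.20 on its other probe; 0.091 without control replicate 3, 0.10 without CCH replicate 4 and 0.27 without CCH replicate 1). The adjusted p of these named genes lay between 0.240 and 0.671 by limma. With 1 array left out Nfs1 ran up to 0.31 and Slc7a11 down to -1.22.

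**Figure D4:**
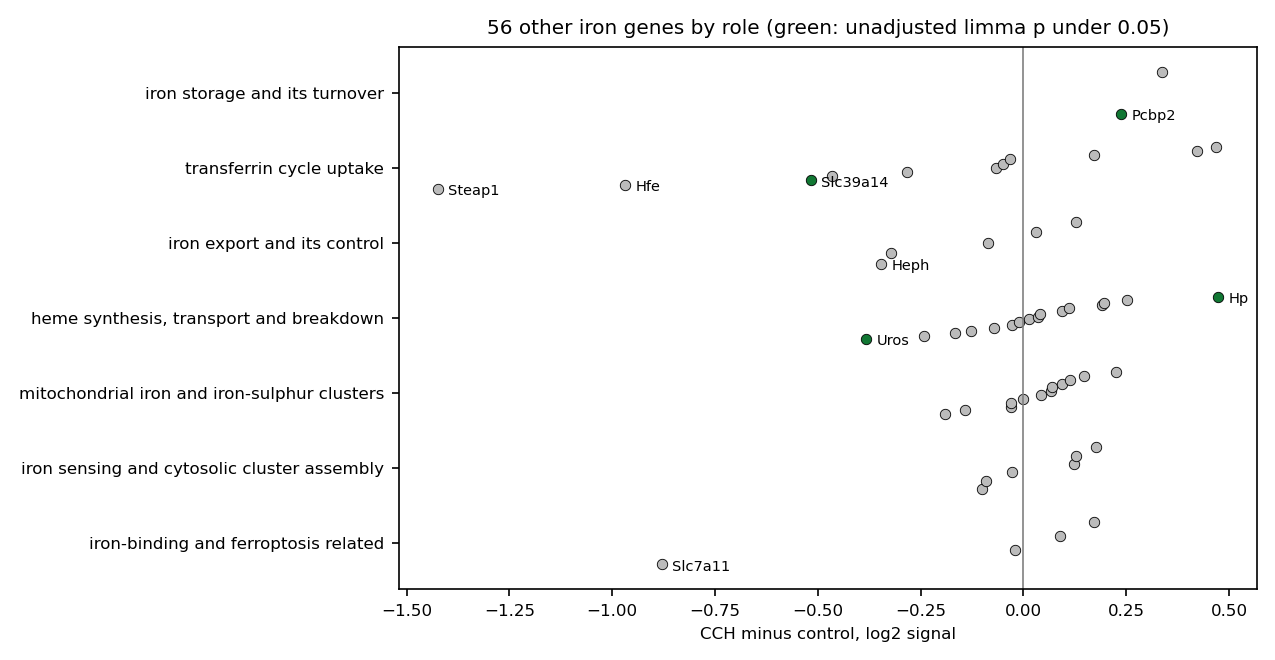
Each point is 1 of the 56 other iron genes, placed by its log2 difference between CCH and control (x axis) and grouped by role (y axis); green points have an unadjusted limma p under 0.05. Most genes lie close to 0, and Steap1 at -1.42, Hfe at -0.97 and Slc7a11 at -0.88 lie farthest out without reaching that p.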

How the data were processed

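Per the file headers and the submitters' processing notes, the authors scanned 1-colour arrays and extracted spot intensity with Agilent Feature Extraction 9.5; the deposited processed signal is linear, background-subtracted and detrended, with no scaling between arrays, and the array grid names the build rn4. Probes were named through RefSeq accessions of the GRCr8 reference table, and promoters are RefSeq's. Values used here are log2 processed signals, from which the 75th percentile of each array (control spots excluded) was subtracted; spots with an outlier mark were left out. A probe was tested if well above background on at least 4 of 8 arrays, with at least 3 values per group. The diets were compared in R 4.3.3 with limma 3.58.1 (two-sided moderated test from eBayes; Benjamini-Hochberg across tested probes, threshold 0.05), checked on simulated data. The replicate was the rat. Relations with marker scores used exact permutation over arrays in Python 3.11.15.

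The members and lists were chosen with earlier results of these data known. Named genes are all members, per role list those with an unadjusted p under 0.05 or else the 2 with the smallest p, and the 3 genes most like each member; Ncoa4, Steap1 and Hfe were added after their values were seen. Alternatives were normexp (offset 50, on median spot and background signals, as the files used here give no mean signal), other scalings and filters, a replicate block, trend and robust settings, array weights, marker covariates, the deposited value table and leaving out arrays. A slide block could not be fitted, since 0 slides held both groups.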

Additional observations from a re-analysis of the deposited data

Results flagged for a closer look

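In 5 of 70 groups of 4 arrays checked, 1 array lay far from the other 3 by Dixon's test at the 95% level; chance alone marks about 1 group in 20. For the Fth1 probe A_44_P351546, control replicate 1 was at 3.05, with the other controls between 3.36 and 3.38. For Epas1, control replicate 4 was at -0.34, with the others between -0.17 and -0.14. For Hscb, control replicate 4 was at 0.46, with the others between 0.68 and 0.71. For Slc7a11, CCH replicate 4 was at -3.67, with the other CCH arrays between -4.96 and -4.88. For the astrocyte score, control replicate 2 was at 0.041, with the others between -0.08 and -0.06.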

How the results depend on the processing

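The count of called member probes stayed at 0 under every alternative run except array weights, which called 1 (Fth1 A_44_P351546 at 0.37); 11 rather than 12 were tested, without Cp A_43_P11448, with detection on all 8 arrays and without control replicate 1 or 3 or CCH replicate 1 or 2. The count of other iron genes called also stayed at 0, except under array weights, which called 1 (Slc39a14 at -0.47). The count over all tested probes was less steady: 246 with normexp, 29 with no detection filter, 209 with detection on all 8 arrays, 215 with trend and robust settings, 1339 with array weights, 1 with the choroid score and 0 with the oligodendrocyte score as a covariate, 0 without CCH replicates 2 and 4 together (added after seeing the data), and from 0 to 733 with 1 array left out, the highest without CCH replicate 1. With the replicate block it was 0. Deviations of same-numbered arrays correlated above 0.1 in 2 of 4 pairs, and 3 of 8 arrays correlated best with their own number. With so few pairs this cannot tell whether the numbers pair the rats. The block changed no member's call.

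Signs turned for Ireb2 (-0.13) and Hamp (-0.17) with normexp, and for Ftl1 (-0.052, -0.041 and -0.040 on A_44_P149188, A_42_P541032 and A_44_P114869) with array weights. With the choroid score the 3 Cp probes were at 0.38, 0.030 and 0.35 and Steap1 at 0.071. With the oligodendrocyte score, which separates the groups and so cannot be told from diet, the 3 Cp probes were at 2.16, 1.49 and 1.56. The brighter Fth1 probe was at -0.033, Heph at 0.21 and Acsl4 at -0.20 in that fit. Without CCH replicates 2 and 4 the Cp probes A_44_P139939 and A_43_P11448 were at 0.13 and 0.19, Steap1 at 0.14 and Hfe at 0.033. With 1 array left out, the Cp probes A_44_P139939 and A_44_P404836 ran from -0.58 to 0.43 and from -0.75 to 0.21. The Cp probe A_43_P11448 ran from -0.47 to 0.25, but was not tested without control replicate 1 or 3 or CCH replicate 1 or 2. The 3 Ftl1 probes above ran from -0.069 to 0.11, -0.061 to 0.13 and -0.039 to 0.054. The causes were not tested. With normexp 36.6% of all tested probes were higher in CCH, against 55.1%. Member probes with an unadjusted p under 0.05 numbered 3 as reported, and again 3 with normexp and with array weights. They numbered 1 with quantile normalization, and 2 with median scaling and with no detection filter. Signals near background limit Ireb2 and Cp most.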
